A study of Mus musculus with 18 samples.

Results

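The comparison described here set regulatory T cells (Tregs) recovered from injured skeletal muscle against Tregs of the spleen. It used 9 of the 18 bulk RNA-seq libraries of the study, chosen by their tissue label alone: all 3 muscle libraries and all 6 spleen libraries. Every mouse was a 10-week-old male of the Foxp3(DTR/GFP) strain, in which Foxp3-expressing cells also make the diphtheria toxin receptor and green fluorescent protein, so every group carried the same modified allele. The muscle group had volumetric muscle loss of the quadriceps, a surgical removal of tissue, and its Tregs were sorted by flow cytometry at day 7. Each of its libraries pooled cells from 3 mice. The spleen group came from mice without injury, and for it pooling is not stated. A further 3 groups of 3 pooled libraries each, from a calvarial bone defect, a full-thickness skin punch and an infarcted heart, all at day 7, served as a second reference. No uninjured muscle and no spleen of an injured mouse were analysed here, so effects of tissue and of injury cannot be told apart.

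Tregs are CD4 T cells that depend on the transcription factor FOXP3 and hold other immune cells in check through the receptor CTLA-4, capture of interleukin-2 and cytokines such as IL-10. In injured skeletal muscle they accumulate within days, respond to the alarmin IL-33 through its receptor ST2 (encoded by Il1rl1), and release the growth factor amphiregulin, which acts on muscle stem cells. Tregs of lymphoid organs are in large part resting cells that recirculate, held in that state by factors such as TCF-1 and BACH2. Tissue Tregs share instead an activated state that rests on BATF, GATA3, RORα and related factors.

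Library totals were 11582403 to 13358526 counts in muscle and 5970346 to 15756884 in spleen. The spleen libraries carry names of 2 styles: replicates 1 to 3 ("Endo") held at most 7230842 counts, and replicates 4 to 6 ("Tregs", the style of the muscle libraries) at least 13873680. Fold changes below come from a model with tissue and naming style, so they rest on spleen replicates 4 to 6, while levels are given for all 6 libraries in CPM, counts scaled to a common library size with TMM factors. CPM are not divided by transcript length, so a level is compared between libraries and not between genes. Differences are log2 fold changes of muscle over spleen ± standard error, adjusted p values come from the quasi-likelihood F test of edgeR, adjusted by Benjamini and Hochberg's method over all 15617 genes tested, and a change is called at 0.05. These p values measure the spread between libraries.

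The label of the cells was checked first. Foxp3 itself, which lies at chrX:7573644-7595245, plus strand (GRCm38), read 579, 783 and 756 CPM in muscle replicates 1, 2 and 3 and 345 to 445 (median 409) CPM in spleen. All 3 muscle libraries lay above all 6 spleen libraries, by 0.79 ± 0.14 on the log2 scale (adjusted p = 0.00016). Il2ra, the high-affinity interleukin-2 receptor chain, stood at 823, 1395 and 1039 CPM in muscle against 576 to 631 in spleen, and rose 1.82-fold. The shared T cell genes did not pass the test: Cd4 differed by 0.16 ± 0.14 (adjusted p = 0.46) and Cd3e by -0.16 ± 0.17 (adjusted p = 0.54), with overlapping groups. In bulk RNA, fewer cells of a type and less RNA per cell cannot be told apart.

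Markers of other cells were summed per library. The 10 B cell markers summed to 8.64 to 13 CPM in muscle and 50.1 to 137 in spleen, and all 10 were called lower in muscle. Macrophage markers came to 3.96 to 17.3 CPM against 22.1 to 41.7, with 4 of the 8 tested lower and none higher. Erythroid markers were nearly absent from muscle, at 0 to 0.33 CPM against 2.92 to 31.8. The summed level of each of these 3 marker lists was lower in every muscle library than in any spleen library. Markers of CD8 T and NK cells overlapped, at 32.9 to 48.1 CPM in muscle and 25.9 to 65.1 in spleen, and 0 of the 8 tested were called by edgeR, with 1 higher at an unadjusted p under 0.05 and 1 higher by DESeq2 and by limma-voom. The summed markers of γδ T cells were also lower in every muscle library, at 3.55 to 4.65 CPM against 9 to 13.3. Of the 4 tested, 2 were called lower, Trdc and Blk, and Blk also stands in the B cell list. Mast cell and eosinophil markers went the other way, at 8.09 to 16.1 CPM in muscle against 0.0709 to 2.29. Nearly all of that sum was Kit, a receptor tyrosine kinase (15.8, 9.07 and 8.09 CPM in muscle), while Mcpt4, Ms4a2, Siglecf and Epx had no count in any muscle or spleen library. Dendritic cell markers summed to 39.4 to 63.3 CPM against 4.3 to 100, with Zbtb46 and Xcr1 called higher, the latter not without muscle replicate 1 (adjusted p = 0.06). Satellite cell markers, from the stem cells of muscle, summed to at most 0.525 CPM. The part that such cells play in any one gene's difference was not tested.

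Muscle replicate 2 held the most muscle fibre transcripts. Among muscle fibre transcripts with no count in any spleen library, Myh4 (a fast myosin heavy chain) gave 580 counts there, against 3 and 13 in muscle replicates 1 and 3. Des (desmin) gave 231 counts against 1 and 2, Myh1 232 against 0 and 0, and Myh8 279 against 0 and 0. Markers of skeletal muscle summed to 112 CPM in that library and to 6.4 and 7.6 in the others. Muscle replicate 1 held the most fibroblast transcripts, with markers that summed to 49.5 CPM against 1.95 and 6.28 in replicates 2 and 3. In spleen the same markers summed to 0 to 14.9 CPM. Col3a1 read 18 CPM in muscle replicate 1 against at most 0.15 in replicates 2 and 3. Replicate 2 was also the highest muscle library for several genes described below, Pcsk1, Ccr1, Gzmb and Mt1 among them. Without muscle replicate 1 the calls against spleen came to 1995 higher and 1650 lower genes, and without replicate 2 to 1859 and 1455.

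Of the 15617 genes tested, 2222 (14.2%) were higher and 1762 (11.3%) lower in muscle, together 25.5%. The counts of list members given below are to be read beside these shares. At least 2-fold differences were called for 1275 higher and 1014 lower genes, and at least 16-fold differences for 218 and 209. The median log2 fold change over all genes was -0.01. All 3 muscle libraries lay above all 6 spleen libraries in 2268 genes (14.5%) and below them in 1889 (12.1%). Protein-coding genes were called higher more often than lower (2057 and 1320 of 11974), whereas of 159 small nucleolar RNA genes 2 were higher and 80 lower. When muscle was set against the 3 spleen libraries of its own naming style alone, 3074 of the 3984 calls were made again, with none in the opposite direction. The main folds rest on those same 3 libraries, so agreement in direction was largely fixed in advance. Without the naming style, 3469 of the calls were made again and 0 were called in the opposite direction.

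**Figure D1:**
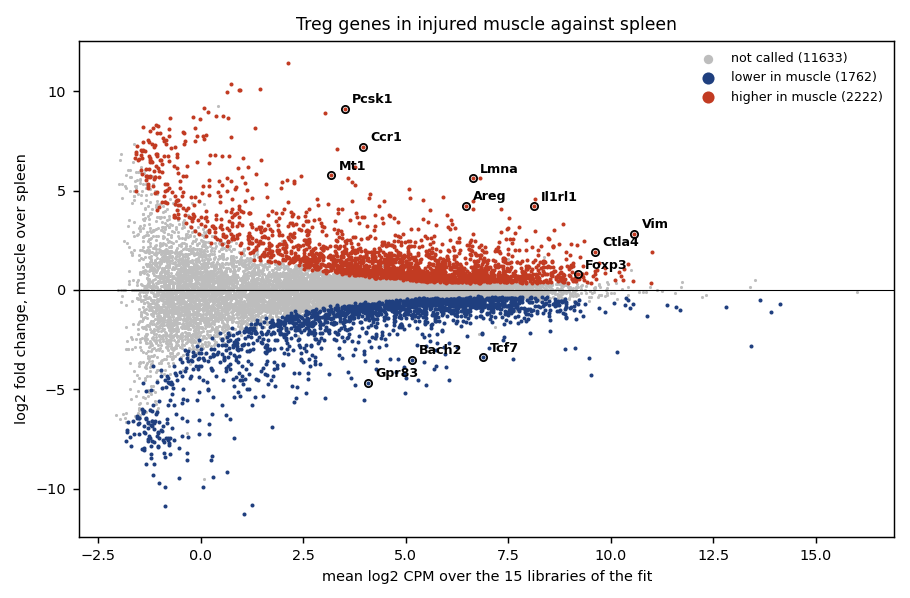
Log2 fold change of muscle over spleen (vertical axis) against the mean log2 CPM (horizontal axis) for the 15617 genes tested, one point a gene, with the 2222 genes called higher in red, the 1762 called lower in blue and the rest in grey. Labelled points are genes described in the text, from Pcsk1 (9.12) to Gpr83 (-4.67).

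Among the largest gains at well-measured levels was Pcsk1. It lies at chr13:75089826-75134861, plus strand, and encodes a prohormone convertase that cuts peptide precursors such as proenkephalin. Pcsk1 reached 53, 158 and 68.2 CPM in muscle and stayed at 0.0673 to 0.991 CPM in spleen, a 556-fold difference (9.12 ± 0.63, adjusted p = 1.5e-07). Its lowest muscle library lay far above its highest spleen library. Spleen libraries held few counts of Pcsk1, so the size of the fold is imprecise. Penk, the precursor of enkephalins, rose as well, from 39.6 to 64.8 CPM in spleen to 135 to 156 in muscle (1.47 ± 0.20, adjusted p = 6.4e-06). Anxa1, annexin A1, which mediates resolution of inflammation, read 47.8, 81.1 and 59.1 CPM against 0.283 to 5.45 (median 2.46). Npnt, nephronectin, an extracellular matrix ligand of integrins, read 27.8, 88.7 and 55 CPM against 0.129 to 2.69 (median 1.39), and Ramp3, a partner of the calcitonin receptor-like receptor, 36.6, 26.9 and 32.4 against 1.01 to 3.47 (median 2.34). Every muscle library exceeded every spleen library for each of these genes. Msrb3, a methionine sulfoxide reductase, rose 48.8-fold, and Mmp25, a membrane-bound matrix protease, 22.5-fold.

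Among the largest losses, Gpr83 (chr9:14860210-14870789, plus strand), a G protein-coupled receptor known as a Treg marker, fell from 107 to 159 (median 128) CPM in spleen to 2.99, 6.37 and 4.13 CPM in muscle (-4.67 ± 0.28, adjusted p = 1.4e-10). Dtx1, a ubiquitin ligase of the Notch pathway, fell from 174 to 226 CPM to 5.57, 9.82 and 12.1, and St8sia1, the GD3 ganglioside synthase, from 54.2 to 86.5 to 5.82, 1.35 and 2.15. Igfbp4, an IGF-binding protein, stood at 0.499, 2.4 and 0.908 CPM against 40 to 90.4 (median 50.4). None of these 4 genes had a muscle library inside the spleen range. Art2b, an ADP-ribosyltransferase of the T cell surface, Actn1, α-actinin 1, and Tbc1d4, a regulator of glucose transporter traffic, were 17.3-fold, 12.4-fold and 9.52-fold lower.

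The core Treg genes did not move as 1 block. Of 17 core genes tested, 11 were higher and 2 lower, and their median log2 fold change was 0.79. Itgae, the αE integrin chain CD103, rose 4.48-fold (2.16 ± 0.22), Ctla4 3.77-fold (1.92 ± 0.16), and Tigit, an inhibitory receptor, 2.97-fold. Izumo1r, folate receptor 4, fell 4.59-fold beside Gpr83, from 255 to 349 CPM in spleen to 55.9 to 67.2 in muscle. Ikzf2, the factor Helios, was 0.46 ± 0.14 (adjusted p = 0.019), and the call was lost without muscle replicate 2 (adjusted p = 0.057) and without spleen replicate 4 (adjusted p = 0.091). T cell receptor signalling genes were mixed, with 6 of 20 higher, 4 lower and a median of -0.06. Only 2 were lower against spleen replicates 4 to 6 alone, and without any 1 of muscle replicates 1 and 3 and spleen replicates 1, 5 and 6. Among them Sla, an adaptor that dampens receptor signals, rose 2.26-fold, and Themis, an adaptor of signal strength, fell 1.8-fold.

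The listed transcription factors of effector and of resting T cells moved mostly in opposite directions. Both lists were drawn up with earlier results of these data known, so their counts are descriptive only. All 23 factors listed for effector and tissue Tregs were called higher in muscle, beside 14.2% of all genes tested, with a median of 1.77. Between 20 (without spleen replicate 4) and 23 were called in the alternative analyses. Rora, encoding RORα, read 917, 1134 and 1082 CPM in muscle against 98.2 to 156 (median 114) in spleen (3.03 ± 0.17, adjusted p = 1.3e-11). Id2, an inhibitor of E proteins, read 408, 593 and 422 CPM against 31.8 to 59.2 (median 47). Pparg, the factor of adipose tissue Tregs, read 21.8, 47.3 and 25.9 CPM against 0.635 to 2.33 (median 1.62). All 3 factors stood above the whole spleen range in each muscle library. Bhlhe40, Prdm1 (BLIMP-1), Gata3 and Ahr rose 5.6-, 3.41-, 2.42- and 2.4-fold.

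Of 16 factors of resting T cells tested, 12 were lower, beside 11.3% of all genes tested, and none was higher, with a median of -1.36. Without the naming style 1 was higher and 11 lower. With a replicate block in place of the naming style, a fit that rests on spleen replicates 1 to 3, 2 were higher and 11 lower. Tcf7, encoding TCF-1, fell from 338 to 491 (median 430.1) CPM in spleen to 43.7, 33.7 and 56.9 in muscle (-3.39 ± 0.18, adjusted p = 4.1e-12). Bach2, a repressor of effector programmes, fell from 125 to 164 (median 143) CPM to 11.7, 8.32 and 18.5 (-3.51 ± 0.30, adjusted p = 1.4e-07). Id3 fell from 40 to 93.1 (median 45) CPM to 6.32, 3.15 and 3.72. The groups were far apart for these 3 genes, each muscle value lying below the lowest spleen value. Satb1, a chromatin organiser, Lef1, the partner of TCF-1, and Klf2, which drives recirculation genes, were 4.44-, 3.09- and 2.13-fold lower. Ets1 (-0.09 ± 0.14, adjusted p = 0.69) and Tox (0.10 ± 0.13, adjusted p = 0.62) did not pass the test. Under the replicate block Tox was called higher (0.58 ± 0.14, adjusted p = 0.006, edgeR).

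**Figure D2:**
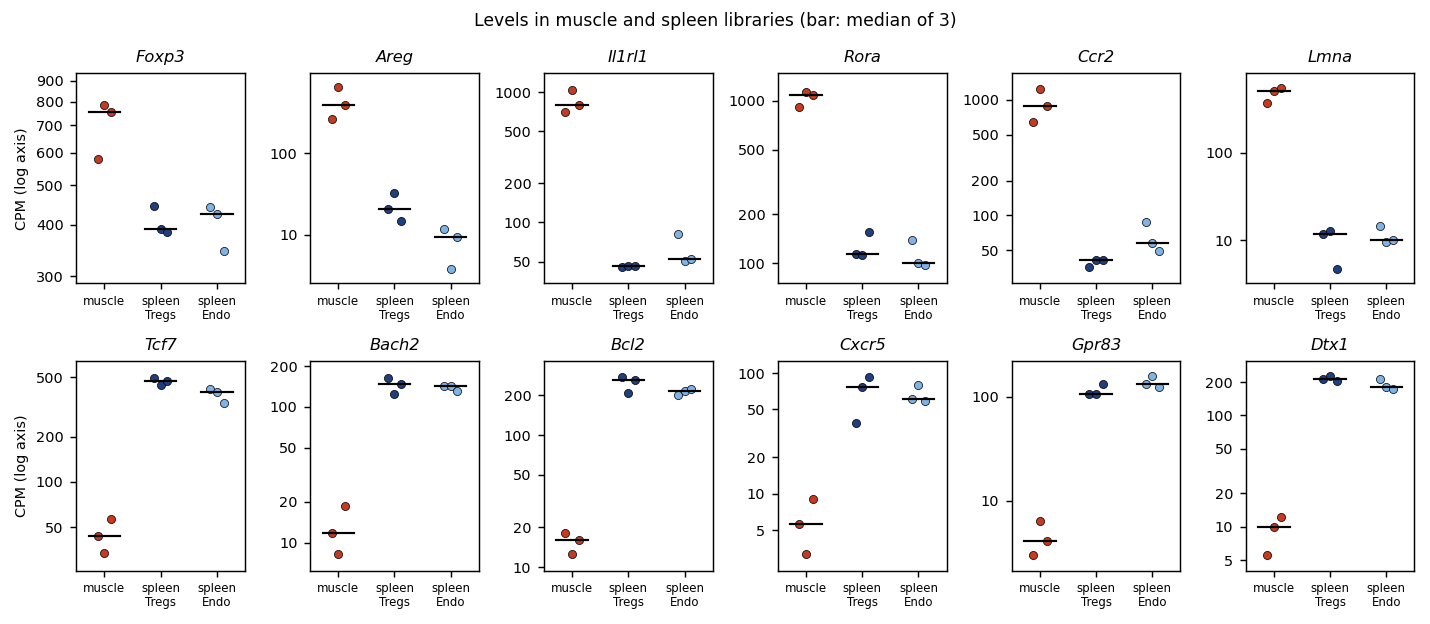
Level of 12 genes in each library, in CPM on a log axis, with circles for the 3 muscle libraries (red), the 3 spleen libraries of the Tregs naming style (dark blue) and the 3 of the Endo style (light blue), and a bar at each group's median. The upper 6 genes lie higher in every muscle library than in any spleen library and the lower 6 lie below, as for Areg (259.7 to 644 against 3.81 to 32.7 CPM) and Tcf7 (33.7 to 56.9 against 338 to 491 CPM).

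Genes of the repair response came next. Areg, the amphiregulin gene at chr5:91139599-91148432, plus strand, read 259.7, 644 and 389 CPM in muscle and 3.81 to 32.7 (median 13.2) CPM in spleen, an 18.8-fold difference (4.24 ± 0.46, adjusted p = 3.3e-05). Spleen values of Areg spread widely, yet even the highest was far below the lowest muscle value. Below are the 250 bases upstream of its transcription start in RefSeq (GRCm38.p6, chr5:91139349-91139598, plus strand), shown because they hold the full cyclic AMP response element TGACGTCA, printed in capitals. That palindrome occurs in 1.55% of the 32851 upstream windows of the same length, and the match is a description of sequence only.
Areg: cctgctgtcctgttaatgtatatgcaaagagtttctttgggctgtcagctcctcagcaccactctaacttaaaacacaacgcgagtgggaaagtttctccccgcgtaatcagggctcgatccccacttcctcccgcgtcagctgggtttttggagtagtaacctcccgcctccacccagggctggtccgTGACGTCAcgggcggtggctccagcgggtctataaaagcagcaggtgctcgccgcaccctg

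Of 29 repair factors, 23 were tested, 10 were higher and 3 lower, beside 14.2% and 11.3% of all genes tested, with a median of 0.99. Il1rl1, the receptor of IL-33 that is known to induce amphiregulin, read 711, 1043 and 796 CPM in muscle against 45.8 to 82 (median 48.4) (4.21 ± 0.19, adjusted p = 1.1e-12). Fgl2, a soluble suppressive fibrinogen-like protein, read 479, 746 and 465 CPM against 39.1 to 68.6 (median 53.1). Metrnl, a secreted factor that acts in muscle repair, read 12, 17.4 and 16.3 CPM against 0.202 to 2.07 (median 0.877). These 3 genes showed no overlap between muscle and spleen. Pdgfb, a mitogen of stromal cells, rose 12.5-fold, Jag1, a Notch ligand, 5.67-fold, and Tgfb1 1.65-fold with narrow spread (230.0 to 296 against 148 to 174 CPM). Tgfb3 and Tgfa were at lower levels, 3.16, 5.77 and 7.1 CPM and 3.08, 1.72 and 6.61 CPM in muscle against 0.0709 to 0.875 and 0 to 0.269 in spleen.

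Other growth factors did not follow. Igf1 had no count in any muscle library and 0.635 to 3.16 CPM in spleen, Fgf2 read 2.83, 0.75 and 0.495 CPM in muscle against 3.47 to 11.1, both called lower, and Pdgfc had too few counts to be tested. Hbegf (1.41 ± 1.00, adjusted p = 0.33) and Vegfa (0.99 ± 0.80, adjusted p = 0.4), 2 further epithelial and vascular growth factors, did not pass the test and overlapped. Hgf, the hepatocyte growth factor, was the third gene of the list called lower, a call lost without any 1 of muscle replicates 2 and 3 and spleen replicates 4 and 5 (adjusted p between 0.054 and 0.094). Without spleen replicate 5, and against spleen replicates 4 to 6 alone, 1 gene of the list was lower.

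Cytokine genes went both ways. Of 24 listed, 15 were tested, with 4 higher, 4 lower and a median of -0.16. Il10, the suppressive cytokine, read 116, 192 and 91 CPM in muscle and 2.6 to 20.8 (median 10.8) in spleen (3.04 ± 0.37, adjusted p = 2.7e-05). Il5 and Il17a, type 2 and type 17 cytokines, had no count in any spleen library. In muscle Il5 read 3.08, 1.95 and 3.3 CPM, at least 59.3-fold above the spleen floor of 3 counts over the group, and Il17a 1.41, 4.12 and 0.908 CPM, at least 45.9-fold. Ebi3, a subunit of IL-35 and IL-27, rose 3.37-fold. Tnfsf8 (CD30 ligand) and Lta (lymphotoxin α) fell 3.36- and 3.19-fold, and Ifng differed by 0.19 ± 0.40 (adjusted p = 0.77).

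Receptors for cytokines were more often raised: 16 of 27 were higher, 4 lower, median 0.74. Il18rap and Il18r1, the chains of the IL-18 receptor, were 8.94- and 2.68-fold higher. Il23r, the IL-23 receptor, read 8.72, 16 and 8.75 CPM in muscle and 0 to 1.27 (median 0.338) in spleen, Il9r 40.7, 56.4 and 54.7 against 9.82 to 21.3 (median 15.8), and Ifngr1, the ligand-binding chain for interferon γ, 986, 1083 and 1020.0 against 199 to 225 (median 205). No muscle library fell into the spleen range for any of them. Receptors that fell included Il6ra and Il6st, the 2 chains of the IL-6 receptor (-1.59 and -0.80) and Tgfbr3 (-3.73 ± 0.57), a co-receptor for TGF-β.

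Of 23 chemoattractant receptors tested, 15 were higher and 2 lower, with a median of 1.58. Lower genes numbered 1 without spleen replicate 4 and 4 with limma-voom or no filter. Ccr1, a receptor for inflammatory CC chemokines, read 57.8, 155 and 78 CPM in muscle and 0.337 to 2.29 (median 1.2) in spleen (7.20 ± 0.48, adjusted p = 4.5e-08). Ltb4r1, the receptor for leukotriene B4, read 31.8, 98.2 and 47 CPM against 0 to 3.81 (median 1.27) (7.08 ± 0.75, adjusted p = 2.2e-05). Ccr2, the receptor for CCL2, read 647, 1238 and 886 CPM against 35.6 to 88.4 (median 45) (4.56 ± 0.24). Spleen Tregs were close to 0 for the first pair and low for Ccr2, whereas every muscle library lay above the spleen range. Cxcr6, Ccr3 and Ccr8, receptors found on tissue Tregs, rose 34.2-, 13.4- and 6.02-fold. Gpr55, a lysophosphoinositol receptor, rose 9.88-fold.

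Cxcr5 and Ccr7 are receptors of lymphoid homing. Cxcr5, the receptor that leads into B cell follicles, read 5.57, 3.15 and 9.08 CPM against 38.6 to 93.4 (median 68.9) (-3.56 ± 0.49, adjusted p = 0.00013). It was lower in each muscle library than in any spleen library. Ccr7, the lymph node homing receptor, stood at 102, 28.4 and 50.1 CPM against 106 to 292 (median 149) without overlap and missed the threshold (-1.19 ± 0.44, adjusted p = 0.071), which it passed without muscle replicate 1 (adjusted p = 0.0056) and without spleen replicate 3 (adjusted p = 0.03). It also passed without the naming style (adjusted p = 0.014), with no filter (adjusted p = 7.4e-11), by DESeq2 (adjusted p = 0.024) and by limma-voom (adjusted p = 0.041). B cell markers, as given above, were lower in the same libraries as Cxcr5, and their part in its difference was not tested.

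Surface regulators and their ligands rose in 14 of 23 cases and fell in 5, with a median of 0.79. Klrg1, a marker of terminally differentiated Tregs, read 367, 668 and 413 CPM against 26 to 62 (median 40.1) (4.07 ± 0.23, adjusted p = 5.1e-11). Havcr2 (TIM-3) read 64.9, 106 and 59.7 CPM against 1.73 to 5.04 (median 2.59), and Icos, a costimulator, 1139, 1494 and 1299 against 183 to 267 (median 194). For these 3 receptors the groups were separate. The tumour necrosis factor receptors Tnfrsf9 (4-1BB) and Tnfrsf4 (OX40) rose 5.87- and 3.79-fold, Pdcd1 (PD-1) 3.95-fold and Cd80 6.08-fold. In the other direction Cd96 fell 3.15-fold, Cd200 2.93-fold and Btla 2-fold, all of them inhibitory receptors or ligands. Cd226, an activating receptor that shares ligands with Cd96, was -0.05 ± 0.15 (adjusted p = 0.83), with overlapping groups.

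Adhesion, matrix and nuclear envelope genes were higher in 21 of 36 cases and lower in 2, median 0.83. Lower genes numbered 4 without any 1 of muscle replicates 1 and 2 and spleen replicate 3, and up to 6 with other tools. Lmna, lamin A/C of the nuclear envelope, read 372, 509 and 556 CPM against 4.68 to 14.5 (median 10.9) (5.62 ± 0.38, adjusted p = 1.1e-07). Vim, vimentin, read 2770.0, 4211 and 3530.0 CPM against 399 to 597 (median 494), and Cd44, the hyaluronan receptor, 1024, 1421 and 1166 against 219 to 267 (median 239). These are broadly expressed structural and adhesion genes, and all muscle values exceeded all spleen values. Lgals3 and Lgals1, galectins, rose 13.6- and 5.27-fold. Among integrin α chains, Itga3, Itgav and Itga2 rose 10.1-, 4.65- and 3.77-fold and Itga6 fell 2.9-fold, while the partner chain Itgb1 was 0.03 ± 0.16 (adjusted p = 0.91). Mmp9 and Adam8, proteases, rose 12.5- and 23.3-fold.

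Granule and lysosome genes were higher in 10 of 19 cases and lower in 1, median 0.58. Gzmb, granzyme B, was the most changed, at 277, 775 and 416 CPM against 7.27 to 26.8 (median 11) (5.64 ± 0.54, adjusted p = 1.6e-05). Gzmc rose to 3.41, 4.05 and 10.2 CPM from 0 to 1.49; granzyme genes are a family of similar sequences, so reads shared between copies make their levels less certain. Prf1, perforin, was 0.58 ± 0.49 with overlap (adjusted p = 0.42), and Fasl -0.63 ± 0.45 (adjusted p = 0.33). Serpinb9 and Serpinb6b, protease inhibitors that protect cells from granzymes, rose 1.89- and 2.55-fold. Srgn, the granule proteoglycan, rose 2.13-fold.

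**Figure D3:**
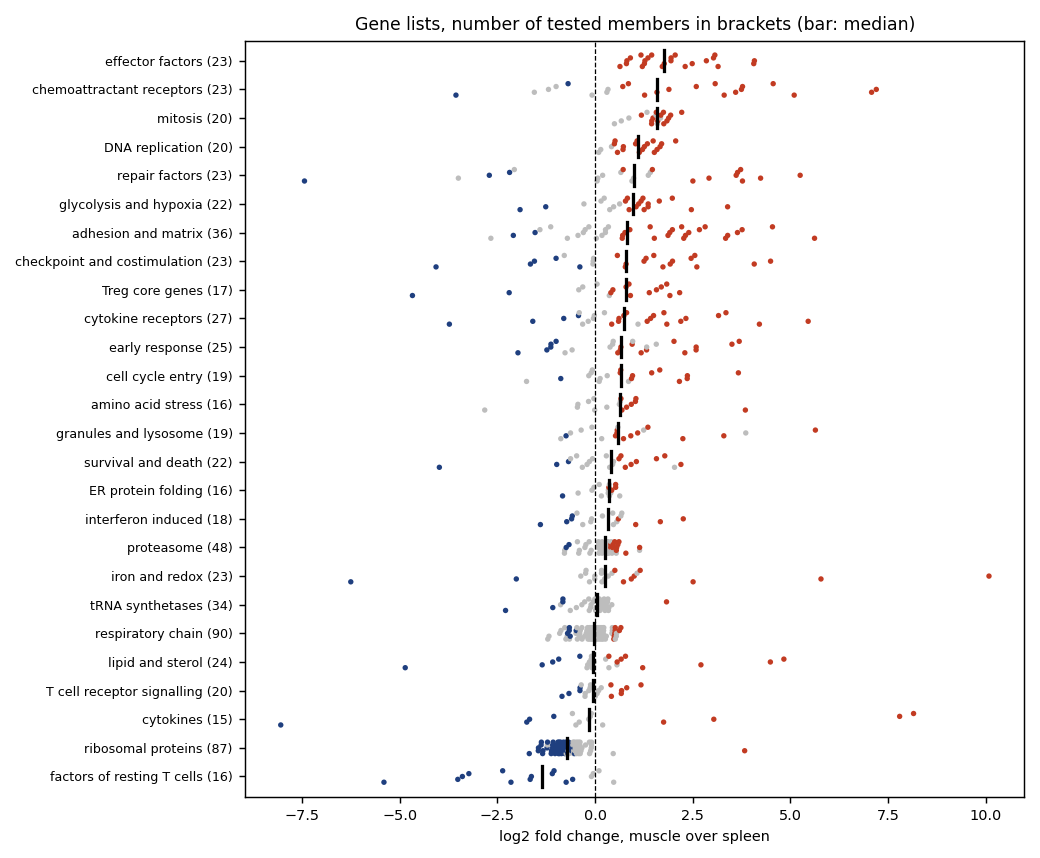
Log2 fold change of muscle over spleen for the tested members of 26 gene lists, one point a gene, red for members called higher, blue for members called lower and grey for the rest, with a black bar at each list's median and a dashed line at the median of all 15617 genes (-0.01). Lists are ordered by median, from effector factors (1.77) to factors of resting T cells (-1.36).

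Genes induced early after receptor stimulation went both ways, with 12 of 25 higher, 5 lower and a median of 0.66. Nr4a1 and Nr4a3, orphan nuclear receptors induced by antigen receptor signals, read 826, 1439 and 1239 and 974, 1274 and 1040.0 CPM in muscle against 82.6 to 291 and 52.8 to 228 in spleen (2.30 ± 0.22 and 2.59 ± 0.19). Dusp4 and Dusp5, phosphatases of MAP kinases, rose 6- and 4.05-fold, and Tnfaip3, the NF-κB inhibitor A20, 2.43-fold. Egr2 and Myc, in contrast, fell 3.92- and 2.19-fold, with Egr2 at 5.48, 8.85 and 8.01 CPM against 21.1 to 41.6 (median 24.2). Fos (0.45 ± 0.38, adjusted p = 0.44) and Zfp36 (0.38 ± 0.30, adjusted p = 0.4) overlapped between the groups. Members of this list thus differed in sign, and no single direction describes it.

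Genes of cell division were raised. Of 20 DNA replication genes, 17 were higher and none lower (median 1.1), and of 20 mitotic genes 13 were higher and none lower (median 1.58). Mcm5, a subunit of the replicative helicase, read 94.2, 79.2 and 82.9 CPM against 31.1 to 45.6 (median 35.5) (1.34 ± 0.15, adjusted p = 3.2e-07), and Uhrf1 60.1, 49.6 and 62.6 against 9.35 to 19.9 (median 17.2). Bub1, a kinase of the spindle checkpoint, read 33.2, 14.4 and 17.8 CPM against 1.82 to 6.45 (median 3.44) (2.22 ± 0.36, adjusted p = 5.2e-05). The summed level of the mitotic genes was 1500 to 2580 CPM in muscle and 122 to 873 in spleen, so the groups did not overlap although spleen varied widely. Mki67, the common proliferation marker, lay higher in all muscle libraries and still missed the threshold (1.67 ± 0.67, adjusted p = 0.096), which it passed against spleen replicates 4 to 6 alone (1.67 ± 0.21, adjusted p = 9.7e-05), without spleen replicate 3 (adjusted p = 3.5e-07), without the naming style (adjusted p = 0.023), with no filter (adjusted p = 7.6e-23), by DESeq2 (adjusted p = 0.047) and by limma-voom (adjusted p = 0.017). Over the alternative analyses between 10 mitotic genes (without muscle replicate 1 or without spleen replicate 4, among others) and 19 (without the naming style) were called higher, and 15 against spleen replicates 4 to 6 alone. Cdkn1a, the inhibitor p21, rose 12.7-fold and Ccnd3, cyclin D3, fell 1.84-fold.

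Among survival genes, Bcl2 and its relative Bcl2l1 moved in opposite directions. Bcl2 fell from 201 to 273 (median 220.1) CPM in spleen to 18.2, 12.7 and 16.2 in muscle (-3.98 ± 0.22, adjusted p = 1e-11). Bcl2l1, which encodes the related protector BCL-XL, rose from 32.2 to 48.3 (median 36.9) CPM to 120.3, 111 and 107 (1.57 ± 0.16, adjusted p = 7.5e-08). Both shifts left the groups without overlap. Birc3 and Pmaip1 (NOXA) rose 2.08- and 3.44-fold, and Bcl2l11 (BIM) and Mcl1 fell 1.97- and 1.6-fold. Bcl2a1d rose 4.58-fold, but its near-identical copies make that level uncertain. Of 22 survival and death genes, 8 were higher and 3 lower (median 0.41), beside 14.2% and 11.3% of all genes tested.

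Glycolysis genes and known targets of the hypoxia factor were higher in 14 of 22 cases, lower in 2, median 0.96. Hif1a, the factor itself, read 1193, 1508 and 1426 CPM against 291 to 644 (median 391) (1.35 ± 0.21, adjusted p = 4.1e-05). Egln3, a prolyl hydroxylase induced by it, read 53.9, 96.5 and 74.5 CPM against 4.83 to 8.43 (median 6.49) (3.39 ± 0.23, adjusted p = 2e-10), and Ldha, lactate dehydrogenase A, 860.1, 750.0 and 708 against 283 to 367 (median 337). No muscle value of these 3 genes fell into the spleen range. Slc16a3, the lactate exporter MCT4, Tpi1, Pgk1 and Hk2 rose 5.52-, 3.94-, 2.56- and 2.17-fold. Pdk1, also a known hypoxia target, fell 2.4-fold, and Gapdh was 0.15 ± 0.28 (adjusted p = 0.75). Lower genes of this list numbered 1 against spleen replicates 4 to 6 alone and without any 1 of muscle replicate 1 and spleen replicates 4 and 6. Of 90 respiratory chain genes, 7 were higher and 5 lower, beside 14.2% and 11.3% of all genes tested, with a median of -0.02. These counts moved with single libraries, to 2 higher and 4 lower without muscle replicate 1 (median -0.17), 3 and 3 without muscle replicate 2, 7 and 3 without muscle replicate 3, and 3 and 6, 4 and 5, and 3 and 2 without spleen replicates 4, 5 and 6. Without the naming style they were 2 and 10, and with the replicate block, which rests on spleen replicates 1 to 3, 0 and 21.

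The core of the hypoxia response element, ACGTG, was searched on both strands of the 250 bases upstream of RefSeq starts. It occurred in 12 of the 21 glycolysis genes with a window (57.1%) and in 18.5% of 27025 genes of the table, with no matching for base composition. Since the list holds genes known as targets of the hypoxia factor, the share describes how its members were chosen and supports nothing about these cells. The window of Ldha, from the first of its 2 RefSeq starts (chr7:46845554-46845803, plus strand), is shown because it carries 5 matches at 3 places, in capitals, where a CACGTG matches on both strands. It lies inside the Ldha gene as annotated by GENCODE, which begins upstream of it, at 46841475.
Ldha: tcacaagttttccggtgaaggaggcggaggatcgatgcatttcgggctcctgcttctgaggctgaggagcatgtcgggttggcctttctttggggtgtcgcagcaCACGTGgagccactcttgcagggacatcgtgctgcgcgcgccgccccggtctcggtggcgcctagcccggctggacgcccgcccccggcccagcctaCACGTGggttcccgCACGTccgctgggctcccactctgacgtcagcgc

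Metallothioneins, small proteins that bind zinc and copper, rose together. Mt1 read 25.9, 68.2 and 22.6 CPM in muscle against 0.517 to 1.98 (median 0.794) in spleen (5.78 ± 0.44, adjusted p = 5.4e-09). Mt2 read 7.56, 18.1 and 6.03 CPM against 0 to 0.762, with 0 counts in spleen replicates 4 to 6, so no fold is given (adjusted p = 1.3e-06). Neither gene had a muscle library within the spleen range, and the similarity of both transcripts leaves some reads uncertain. Their upstream windows are shown as neighbours that moved together (GRCm38.p6, chr8:94178839-94179088, plus strand and chr8:94172368-94172617, plus strand). Capitals mark the metal response element core TGCACNC, found in 10.4% of all windows, and its variant TGCGCNC, found in 12.5%, on either strand, with 1 match in Mt1 and 3 in Mt2.
Mt1: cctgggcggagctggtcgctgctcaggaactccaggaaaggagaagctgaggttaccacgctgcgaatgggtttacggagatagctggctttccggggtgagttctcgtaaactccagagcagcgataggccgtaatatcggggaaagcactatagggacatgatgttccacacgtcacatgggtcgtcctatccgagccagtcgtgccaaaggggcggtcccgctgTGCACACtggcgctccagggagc
Mt2: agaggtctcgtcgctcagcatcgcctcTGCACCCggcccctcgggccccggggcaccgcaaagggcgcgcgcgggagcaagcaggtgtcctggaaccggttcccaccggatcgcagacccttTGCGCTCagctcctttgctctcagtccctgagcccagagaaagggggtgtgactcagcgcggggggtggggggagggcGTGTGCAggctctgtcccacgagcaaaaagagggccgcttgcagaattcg

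Iron, redox and lipid genes shifted without a common direction. Of 23 iron and redox genes 8 were higher and 2 lower (median 0.24), beside 14.2% and 11.3% of all genes tested. Tfrc, the transferrin receptor, and Fth1, ferritin heavy chain, rose 2.23- and 1.9-fold. Slc40a1, the iron exporter, and Hmox1, haem oxygenase, were lower, at 0, 0 and 0.33 CPM against 2.54 to 12.7 and at 2.08, 2.1 and 3.06 CPM against 3.43 to 12.5, in the libraries where macrophage and erythroid markers were lower too, whose part was not tested. Of 24 lipid genes 8 were higher and 5 lower (median -0.05). Lower lipid genes numbered 3 without muscle replicate 1, without spleen replicate 6 or against spleen replicates 4 to 6 alone. They numbered 2 without muscle replicate 2 or spleen replicate 4. Dgat1 and Dgat2, enzymes of triglyceride synthesis, were both higher. Dgat1 read 477, 414 and 398 CPM against 14.8 to 22.8 (median 19.5) (4.49 ± 0.21, adjusted p = 1.1e-12), and Dgat2 58.2, 73.3 and 53.5 against 0.142 to 6.92 (median 3.68) (4.83 ± 0.52, adjusted p = 1.5e-05). Their muscle levels lay wholly above spleen. Scd1, the stearoyl-CoA desaturase, went the other way, at 0.166, 1.12 and 0.248 CPM against 5.62 to 18.9 (median 13.5). Odc1, ornithine decarboxylase of polyamine synthesis, rose 10.1-fold (1237 to 1568 against 84.3 to 146 CPM), and Asns, asparagine synthetase, 14.4-fold. Of the 16 genes tested in the amino acid stress list that holds Asns, 7 were higher and 0 lower (median 0.63). Without spleen replicate 6 the counts were 6 and 2.

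Of 87 ribosomal protein genes tested, 51 were lower and 1 higher, with a median of -0.72. Rplp1, for example, read 738, 535 and 494 CPM against 1117 to 2085 (median 1309), and Rpl32 904, 583 and 541 against 1144 to 1485 (median 1293). Both genes were lower in every muscle library. The number lower ranged from 39, without muscle replicate 3, to 70, without the naming style, and none was higher without any 1 of muscle replicates 1 and 2 and spleen replicates 5 and 6. Non-coding RNAs of RNA processing fell further: Rmrp, the RNA of RNase MRP, stood at 277, 209 and 117 CPM against 1388 to 5811 (median 2014), and Rpph1, that of RNase P, at 487, 435 and 197 against 2258 to 3668 (median 2701). Counts of snoRNA and scaRNA genes made up 0.0964 to 0.14% of a muscle library and 0.399 to 1.44% of a spleen library. Rn7sk, the 7SK RNA, took 0.376 to 0.914% of muscle counts, 0.999 to 1.9% in spleen replicates 1 to 3 and 3.97 to 4.94% in replicates 4 to 6. Mitochondrial transcripts took 4.09 to 5.21% against 4.93 to 7.97%. The part of RNA quality or of library preparation in these short-RNA and ribosomal differences was not tested.

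Proteasome genes showed 11 of 48 higher and 2 lower (median 0.26), genes of protein folding in the endoplasmic reticulum 4 of 16 higher and 1 lower (median 0.35), and transfer RNA synthetases 1 of 34 higher and 4 lower (median 0.06), beside 14.2% and 11.3% of all genes. The proteasome count fell to 2 higher (3 lower) without muscle replicate 1, 7 without muscle replicate 2, 5 without spleen replicate 4 and 6 without spleen replicate 5, and was 6 against spleen replicates 4 to 6 alone and 4 (6 lower) with the replicate block. For protein folding 1 was higher without muscle replicate 2, 7 without spleen replicate 3 and 2 without spleen replicate 4 or 6, and for the synthetases 2 were lower without spleen replicate 5. Of 18 interferon-induced genes 4 were higher and 4 lower, with a median of 0.32, but without muscle replicate 1 the counts were 1 and 4, without muscle replicate 2 they were 6 and 2, and without spleen replicates 4 and 6 they were 2 and 3, and 5 and 2. Usp18 and Gbp2, both targets of interferon signalling, fell 2.64- and 1.65-fold, and Cxcl10 rose 4.78-fold. Isg15 (0.56 ± 0.48, adjusted p = 0.44) and Zbp1 (-0.09 ± 0.17, adjusted p = 0.76) did not pass.

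**Figure D4:**
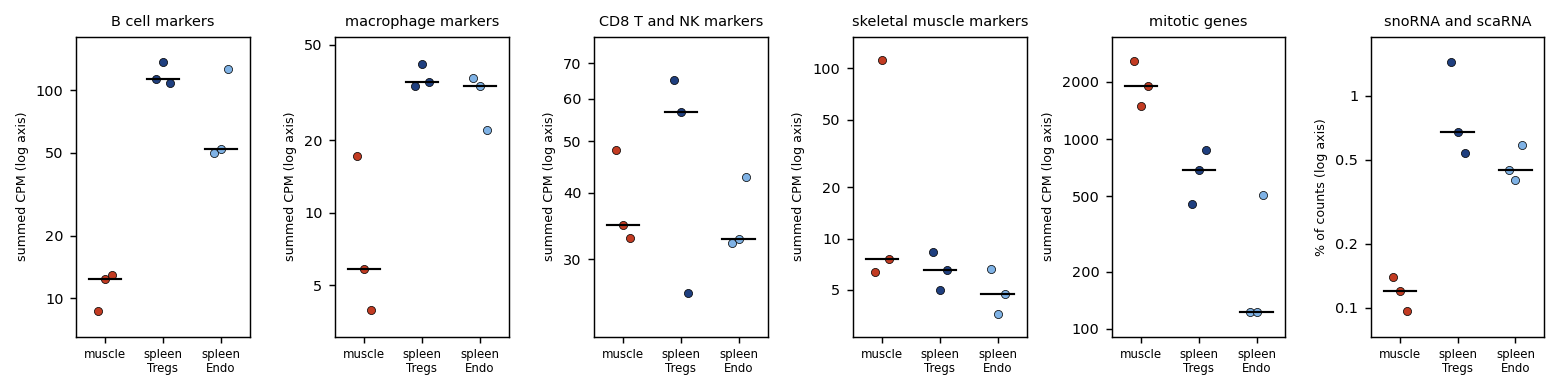
The 6 library measures, one point a library on a log axis, in muscle (red) and spleen (dark blue for replicates 4 to 6, light blue for 1 to 3): summed CPM of the markers of B cells, macrophages, CD8 T and NK cells, and skeletal muscle, summed CPM of the mitotic genes, and the percentage of counts from snoRNA and scaRNA genes. Muscle replicate 2 alone reaches 112 CPM for skeletal muscle markers.

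Muscle Tregs were finally set against the Tregs of the other 3 injured tissues, in a contrast of muscle minus the mean of bone, skin and heart over all 18 libraries. All skin libraries and heart replicate 1 carry the Endo naming style, and all muscle and bone libraries the Tregs style. The skin part of the contrast thus rests on a style effect estimated from spleen and heart. Levels in CPM are not adjusted for style. Of 15926 genes tested, 18 (0.113%) were higher and 14 (0.0879%) lower in muscle. All 3 muscle libraries lay above the other 9 injured libraries in 105 genes (0.659%) and below them in 99 (0.622%). Without muscle replicate 1, 2 or 3 the calls came to 7, 12 and 9 higher and 15, 7 and 15 lower. Most of the genes above had no call here: Areg differed by -0.03 ± 0.36 (adjusted p = 1), Il1rl1 by -0.15 ± 0.17 (adjusted p = 0.91), Ccr2 by 0.35 ± 0.21 (adjusted p = 0.73) and Il10 by 0.12 ± 0.39 (adjusted p = 0.98). Areg, for instance, ranged from 122 to 642 CPM over the other injured libraries, a range that overlaps that of muscle. The 14 lower genes included the B cell markers Cd79a and Ms4a1 (adjusted p = 0.00835 and 0.0136, edgeR). B cell markers summed to 8.64 to 13 CPM in muscle, 61 to 81 in bone, 12.9 to 15.9 in skin and 20.7 to 62.8 in heart. The part of B cells in the other differences was not tested.

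Of the 18 genes higher in muscle, 5 are described together, since each is known from type 1 responses of helper and cytotoxic T cells. They were grouped after the calls were seen, and no list of that kind was tested. Tbx21, encoding T-bet (chr11:97098071-97115331, minus strand), read 48.1, 35.3 and 22.4 CPM in muscle, 12.1 ± 2.2 in bone, 10.3 ± 2.87 in skin and 14.5 ± 2.1 in heart (mean ± SD, n = 3 each), a difference of 1.55 ± 0.29 (adjusted p = 0.014, edgeR). Nkg7, a granule membrane protein, read 67.6, 75.6 and 46.2 CPM in muscle and 14.1 to 30.7 over the other 9 libraries (1.52 ± 0.21, adjusted p = 0.0018). Ccl5, a chemokine of cytotoxic cells, read 89.5, 65.5 and 62.2 CPM against 25.6 to 53.3 (1.13 ± 0.17, adjusted p = 0.0043). Each muscle library exceeded each other injured library for these 3 genes. Cxcr3, the receptor that T-bet is known to induce, stood at 113, 84.2 and 98.9 CPM against 26.6 to 82.5 (0.97 ± 0.19), and Cxcl10, one of its ligands, at 103, 69.5 and 90.9 against 18.7 to 46.9 (1.30 ± 0.22, adjusted p = 0.0083). Against spleen the same 5 genes were also higher in muscle, Tbx21 by 1.94 ± 0.35, Nkg7 by 2.25 ± 0.25, Ccl5 by 1.82 ± 0.20, Cxcr3 by 0.85 ± 0.18 and Cxcl10 by 2.26 ± 0.26. With 1 muscle library left out at a time, Nkg7 and Ccl5 were called against the injured tissues in all 3 cases. Tbx21 was not called without muscle replicate 1 (1.26, adjusted p = 0.17, edgeR) or 2 (adjusted p = 0.063), Cxcl10 not without replicate 1 (adjusted p = 0.075), and Cxcr3 not without replicate 1 (adjusted p = 0.15) or 3 (adjusted p = 0.075). Against bone alone Cxcr3 was not called (0.52 ± 0.18, adjusted p = 0.1).

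Ifng, Il18r1 and Gzmb, also known from type 1 responses, did not pass the test. Ifng was 0.65 ± 0.39 against the other injured tissues (adjusted p = 0.74), Il18r1 0.25 ± 0.17 (adjusted p = 0.79) and Gzmb 0.58 ± 0.36 (adjusted p = 0.78). Gbp10 (1.66 ± 0.31), Iigp1 (1.45 ± 0.27) and Serpina3g (0.96 ± 0.18) were called higher in the same contrast, and each overlapped spleen in level. Because Tbx21, Nkg7 and Ccl5 are also genes of CD8 T and NK cells, the markers of those cells were read beside them. They summed to 32.9 to 48.1 CPM in muscle, 32.6 to 46.9 in bone, 31.8 to 37.4 in skin and 15.5 to 30.5 in heart, so that muscle overlapped bone and skin and lay wholly above heart. Muscle replicate 1 had both the highest sum and the highest Tbx21 of the muscle libraries. Ncr1, a defining NK receptor, was at most 0.914 CPM in muscle. The part of CD8 T and NK cells in these differences was not tested.

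The upstream windows of Nkg7 and Cxcl10 are shown because both genes were set apart in muscle (GRCm38.p6, chr7:43436888-43437137, plus strand and chr5:92348890-92349139, minus strand). In Nkg7 capitals mark the 1 match to the T-box core GGTGTGA, which 3.33% of all windows hold. GENCODE starts Nkg7 within this window, at 43437073, so the match lies inside the gene as annotated there. In Cxcl10 they mark 1 match to the core of the interferon-stimulated response element, held by 2.98%, and an NF-κB core GGGANNTCC, held by 3.59%, whose 2 matches share 1 place. Both strands were searched, and binding was not measured.
Nkg7: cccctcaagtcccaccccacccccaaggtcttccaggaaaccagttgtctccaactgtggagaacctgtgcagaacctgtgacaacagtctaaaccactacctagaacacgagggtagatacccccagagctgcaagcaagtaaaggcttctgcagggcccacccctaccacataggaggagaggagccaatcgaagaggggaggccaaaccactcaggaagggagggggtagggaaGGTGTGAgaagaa
Cxcl10: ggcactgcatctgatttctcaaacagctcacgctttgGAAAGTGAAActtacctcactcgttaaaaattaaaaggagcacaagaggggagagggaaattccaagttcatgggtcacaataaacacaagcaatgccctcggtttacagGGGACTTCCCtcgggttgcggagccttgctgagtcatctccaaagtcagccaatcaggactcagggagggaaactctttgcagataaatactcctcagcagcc

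Further genes higher in muscle than in every other injured library included Adam8, a metalloprotease (156, 236 and 179 CPM against 45.3 to 119.6, 1.27 ± 0.21). Hip1, a clathrin adaptor (1.14 ± 0.19), Sema6d, a semaphorin (1.24 ± 0.25), Podnl1 (1.03 ± 0.20) and B4galt5, a galactosyltransferase (0.89 ± 0.16), were others. At a mean log2 CPM of at least 3, the genes called lower and below every other injured library were Satb1, Nsg2, Tnfrsf26 and Tasp1. Satb1 read 118, 109 and 86 CPM against 178 to 363 (-1.14 ± 0.19, adjusted p = 0.0061). Nsg2 read 5.98, 5.4 and 7.51 against 9.06 to 27.7 (-1.44 ± 0.23, adjusted p = 0.0043). Tnfrsf26 differed by -0.89 ± 0.16 and Tasp1, a protease of MLL processing, by -0.86 ± 0.13. Susd1, Pdzk1ip1 and Nrp2, at a mean log2 CPM of 0.636, 0.614 and 0.214, were also called lower and lay below. Without 1 muscle library, Nsg2 and Tasp1 were called in all 3 cases, Adam8 and Hip1 not without replicate 2 (adjusted p = 0.067 and 0.069), Satb1 not without replicate 3 (adjusted p = 0.053), and Sema6d, Podnl1, B4galt5 and Tnfrsf26 in at most 1 case. Satb1 and Nsg2 were the lowest in muscle of all 5 tissues, since spleen read 359.6 to 589 and 117 to 171 CPM. Against bone alone 357 genes were higher and 402 lower, yet Podnl1 (0.35 ± 0.22, adjusted p = 0.4) and Sema6d (0.93 ± 0.29, adjusted p = 0.071) were not called. Nsg2 was not called by limma-voom (adjusted p = 0.091). Tnfrsf26 was not called by limma-voom (adjusted p = 0.057) or without the naming style (adjusted p = 0.058, edgeR).

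**Figure D5:**
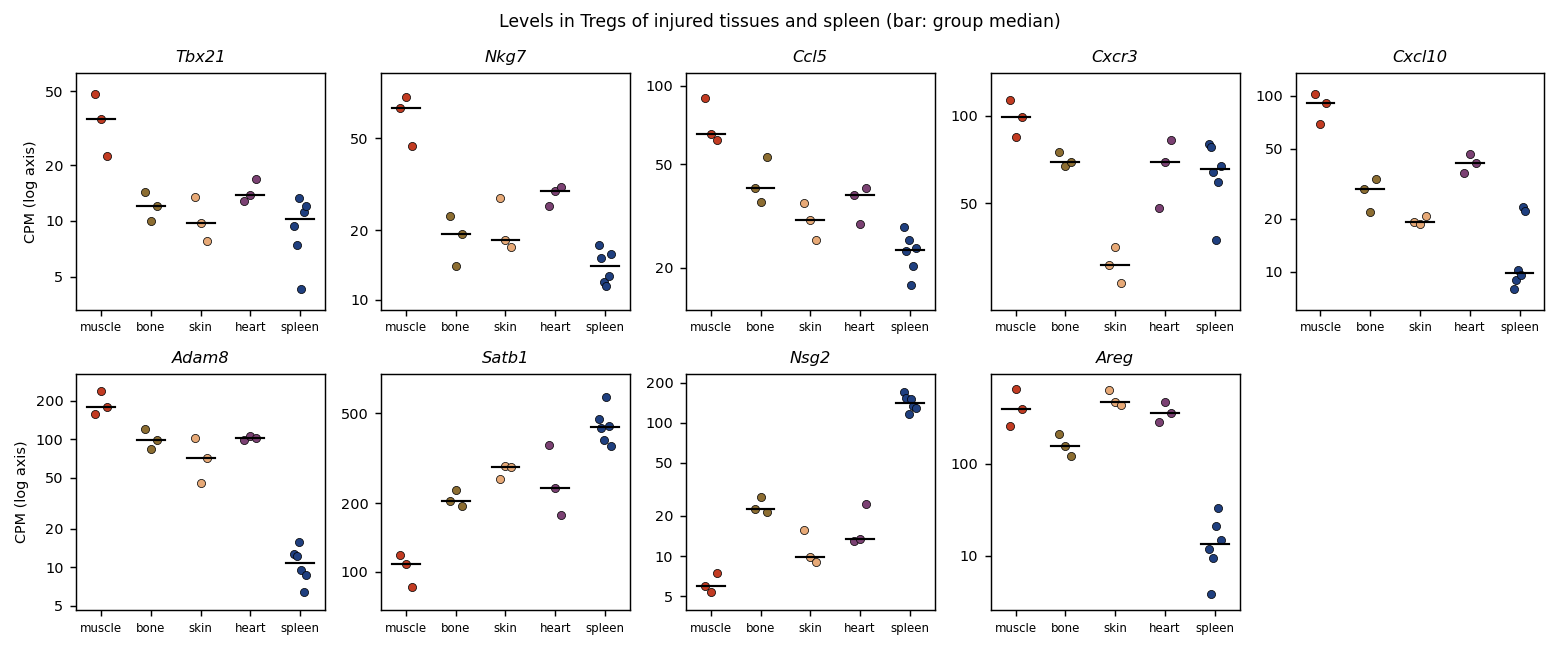
Level of 9 genes in every library of the 5 groups, in CPM on a log axis, one point a library and a bar at each group's median. Muscle (red) lies above bone, skin and heart for Tbx21, Nkg7, Ccl5, Cxcr3, Cxcl10 and Adam8 and below them for Satb1 and Nsg2, whereas Areg (259.7 to 644 CPM in muscle, 122 to 642 in the other injured tissues) overlaps.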

How the data were processed

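The authors deposited raw counts per gene in 2 tables, with heart in a table of its own. Per the submitters' processing notes, STAR, featureCounts, limma and GRCm38 were used, without versions; the sources used here give no annotation release, strand setting or rule for multi-mapping reads. Counts were analysed as deposited with edgeR 4.0.16 in R 4.3.3 (filterByExpr, TMM scaling, robust quasi-likelihood F test, Benjamini-Hochberg adjustment, threshold 0.05). The fit against spleen used the 15 libraries of the first table, with tissue and naming style as terms; the contrast with the other injured tissues used all 18. Genes were tested when they passed the filter, and standard errors are the fold change over the root of F. A group with no counts was set to 3 counts over the group. Positions and gene types are from GENCODE M21 (GRCm38), which held 98.2% of 46078 identifiers. Upstream windows are from RefSeq (GRCm38.p6), which matched 9562 of the 15617 genes tested.

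Genes, lists, motifs and windows were chosen with earlier results of these data known. Named genes were fixed genes, the most changed members of each list, and the most changed genes without overlap at a mean log2 CPM of at least 3; others named here, such as Igfbp4 and list members that did not pass, were chosen after their values were seen. Alternatives were DESeq2 1.42.0, limma-voom (limma 3.58.1), RLE and upper-quartile scaling, other filters, other sets of libraries, a replicate block and each muscle and spleen library left out. The scripts were tested on simulated counts. Depth limits the precision for genes with few counts, and all intervals reflect these libraries only.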

Additional observations from a re-analysis of the deposited data

Results flagged for a closer look

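In 10 of 176 named genes, 1 of the 6 spleen libraries lay apart from the other 5 by more than Dixon's 95% limit on log2(CPM + 1); chance alone flags about 1 in 20 groups. Spleen replicate 3 was high for Col3a1 (4.32 CPM) and Mt2 (0.762 CPM) and low for Fth1 (423 CPM) and Slc40a1 (2.54 CPM). Spleen replicate 1 was high for Il1rl1 (82 CPM) and Itgae (84.1 CPM), and spleen replicate 5 high for Jag1 (4.46 CPM) and low for Lta (14.5 CPM). Spleen replicate 2 was low for Fos (63 CPM) and spleen replicate 4 low for Tnfrsf9 (86.3 CPM).

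Muscle differed from the mean of bone, skin and heart, by the test of that difference, in 14 of the genes named. The log2 differences were 1.55 for Tbx21, 1.52 for Nkg7, 1.3 for Cxcl10, 1.27 for Adam8, 1.24 for Sema6d, 1.14 for Hip1, 1.13 for Ccl5, 1.03 for Podnl1, 0.97 for Cxcr3 and 0.89 for B4galt5. On the lower side they were -1.44 for Nsg2, -1.14 for Satb1, -0.89 for Tnfrsf26 and -0.86 for Tasp1. The same effects were tested with the muscle libraries left out in turn, as given in the results.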

How the results depend on the processing

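Against spleen, the 2222 higher and 1762 lower genes stayed within 1.5 times under all 20 alternatives. Of the calls, 1196 higher and 794 lower were made again in every alternative that tested the gene. Leaving out 1 muscle or spleen library gave 1858 to 2363 higher and 1399 to 1894 lower genes. Of 1600 list counts under alternatives, 181 moved by over 1.5 times.

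Against the other injured tissues the 18 higher and 14 lower genes depended on the analysis. DESeq2 gave 30 and 57, no filter 78 and 121, and bone alone 357 and 402, while limma-voom gave 3 lower genes. Leaving out 1 muscle library gave 7 to 12 higher and 7 to 15 lower genes, with fewer samples. For the other alternatives the cause was not tested.

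Replicate numbers were not taken to pair the samples: same-numbered muscle and spleen libraries had correlations of their deviations of -0.045, 0.002 and -0.045. The same-numbered spleen libraries are of the other naming style than muscle, so these correlations cannot show whether the numbers pair the samples. With a replicate block in place of the naming style, 2442 genes were higher and 2183 lower against spleen, and 14 and 12 against the injured tissues. Of the 3984 calls, 2831 were made again under the block and 11 were called in the opposite direction. Replicate numbers 4 to 6 occur only in spleen, so the fold under the block rests on spleen replicates 1 to 3. Those are of the other naming style than muscle, so tissue and style cannot be told apart there. Bone libraries without a replicate number were left out of that fit. Depth limits genes with few counts, since spleen replicates 1 to 3 held at most 7230842 counts.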
